A study of Homo sapiens with 6 samples.

Results

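The collagens other than type IV are the 36 human collagen genes that remain when the 6 chains of the basement membrane collagen, type IV, are set aside. All 36 were found by gene symbol among the 60675 gene identifiers measured by RNA-seq in A2058 cells, a human line from a metastatic melanoma. Control wells were kept in medium without vitamin C, and treated wells received vitamin C at 100 µM for 48 h, with 3 wells in each group. The question was how the treatment altered the transcriptome, here the genes that encode the collagen chains. The sample labels give 100 µM, whereas the protocol text of the same labels gives 50 µM sodium ascorbate.

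Collagens are trimers of polypeptide chains wound into a triple helix in the endoplasmic reticulum (ER). Vitamin C is a cofactor of the prolyl and lysyl hydroxylases that modify these chains, and without prolyl hydroxylation the helix is not stable at body temperature. Fibrillar collagens form the banded fibrils of skin, tendon, bone and cartilage. The fibril-associated collagens with interrupted triple helices (FACIT) coat or link such fibrils, and type VI forms beaded filaments. Types VIII and X form networks, type VII anchors epithelia, types XIII, XVII, XXIII and XXV span the plasma membrane, and the multiplexins XV and XVIII lie next to basement membranes.

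Library totals ran from 16248869 to 41884588 counts in control wells and from 20944956 to 32549362 in vitamin C wells. Levels are given as CPM (a gene's counts relative to the library total), scaled by the trimmed mean of M values (TMM), so that 1 CPM stood for 16.2 counts in the smallest library and 41.6 in the largest. Of the 36 collagens, 26 passed the filter on low counts and entered the quasi-likelihood test of edgeR, in one fit with all 16353 genes that passed. A gene was called at an adjusted p (Benjamini-Hochberg) under 0.05. The wells are cultures of one line, so p-values measure the spread between wells. The 9 melanocyte lineage markers were all measured, with a summed level of 2565 to 2677 CPM in control wells and 2390 to 2507 CPM in vitamin C wells. Of these 9, 4 rose and 1 fell, beside 6.09% higher and 5.09% lower over all genes tested. MLANA rose by 3.38, PMEL by 0.73, PAX3 by 0.34 and TYR by 0.29 on the log2 scale. DCT, which gave the most reads of the 9, fell by 0.30. Vitamin C replicate 3 stood apart from its group: the chi-square of its counts, divided by the degrees of freedom, was 11.0 against replicate 1 and 10.7 against replicate 2, beside 3.31 between those 2 and 2.75 to 6.65 between control wells. Without it, 6 of the 7 collagens called higher, all but COL14A1, and the 1 called lower were still called.

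After vitamin C, 7 collagens rose and 1 fell. Higher were COL11A2, COL3A1, COL19A1, COL9A2, COL14A1, COL6A3 and COL8A1, and lower was COL5A3. These 8 were 30.8% of the 26 tested, whereas 11.2% of all genes tested were called in either direction, 6.09% higher and 5.09% lower. All 36 are protein-coding genes, and 13.4% of the protein-coding genes tested were called. DESeq2 called 7 of the collagens, all but COL14A1, and 11.3% of the genes it tested. By edgeR, the remaining 18 were not called. The median log2 fold change over the 26 was 0.03, with 14 above and 12 below 0, beside a median of -0.0037 over all genes. Counts do not tell less RNA per cell from fewer cells that express a gene.

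**Figure D1:**
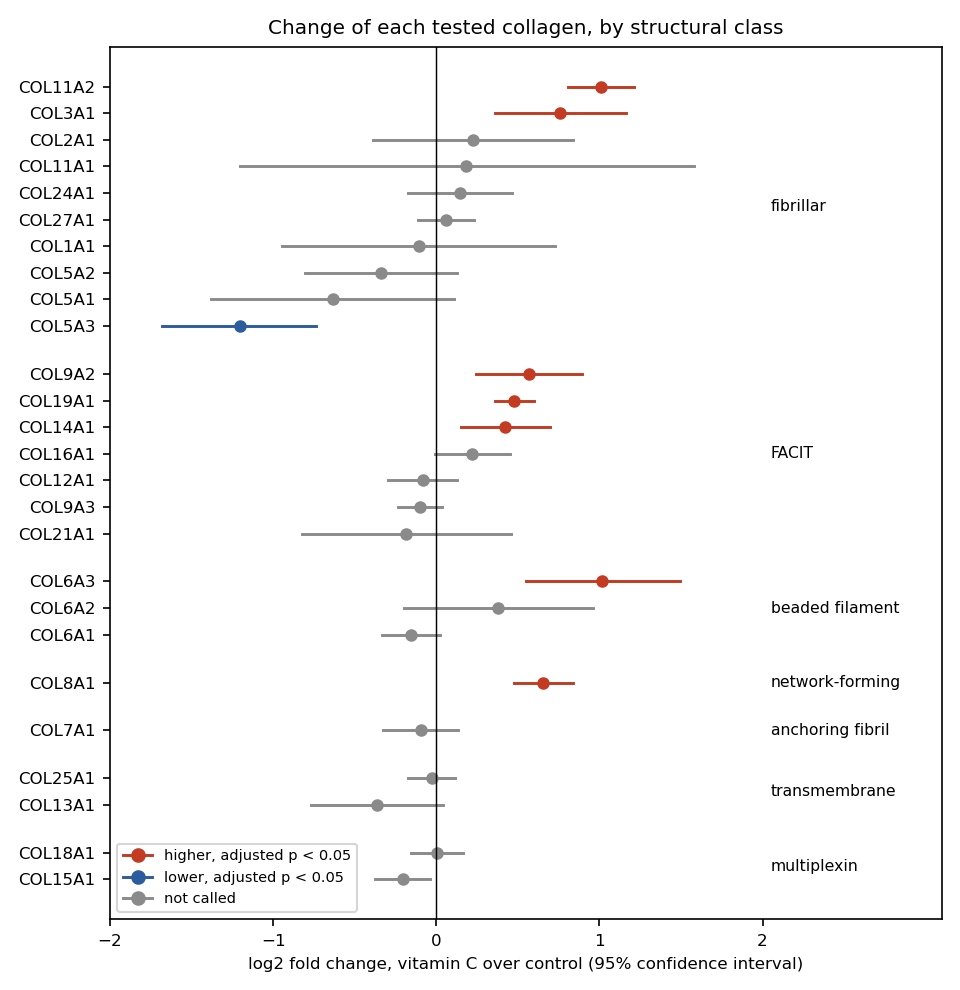
Log2 fold change of the 26 tested collagens, vitamin C over control, with 95% confidence intervals from edgeR, grouped by structural class. Of the 26, 7 lie above 0 and are called (red), 1 lies below 0 and is called (blue), and 18 are not called (grey), the widest interval being that of COL11A1.

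Upstream sequences are shown for COL19A1, the most abundant collagen that rose, and COL5A3, the collagen that fell. No other called collagen had a sole RefSeq window with these bases outside the gene as GENCODE 29 draws it. The sequences are the 250 bases before the RefSeq start (GRCh38.p14), 5′ to 3′ on the gene's strand, with each CG dinucleotide in capitals. The cytosine of a CG can be methylated, and methylated cytosine is the form on which the TET enzymes act. COL19A1 lies on the plus strand, with these bases at chr6:69866306-69866555. COL5A3 lies on the minus strand, with these bases at chr19:10010505-10010754. Neither stretch enters the gene as GENCODE 29 draws it, and the GENCODE start lies 15 bases further on in COL19A1 and 33 bases further on in COL5A3.
COL19A1: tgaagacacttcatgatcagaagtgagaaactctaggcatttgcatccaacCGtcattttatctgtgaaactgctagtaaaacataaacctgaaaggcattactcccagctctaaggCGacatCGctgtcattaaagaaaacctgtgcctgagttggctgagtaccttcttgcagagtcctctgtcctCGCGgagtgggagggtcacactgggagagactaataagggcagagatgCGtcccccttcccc
COL5A3: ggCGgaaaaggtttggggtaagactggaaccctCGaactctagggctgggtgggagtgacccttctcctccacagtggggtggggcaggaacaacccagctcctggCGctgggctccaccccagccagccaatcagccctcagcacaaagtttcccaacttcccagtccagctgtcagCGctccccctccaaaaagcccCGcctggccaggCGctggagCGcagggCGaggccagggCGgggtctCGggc
The COL19A1 stretch holds 6 CG and the COL5A3 stretch 10. Over windows of 300 bases, which add 50 bases after the start, COL19A1 held 11 CG and COL5A3 held 17, beside a median of 14 over all 35116 RefSeq windows. RefSeq windows were at hand for 25 of the 36 collagens. Their 36 windows had a median of 16.5 CG, and 52.8% of them held GGGCGG on either strand, against 45% of all windows. DNA methylation was not analysed here, and these counts of letters are a description of the windows.

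The fibrillar class held 11 collagens. Of these, 10 were tested, 2 rose and 1 fell, beside 6.09% higher and 5.09% lower over all genes tested. COL11A2 (ENSG00000204248, chr6:33162681-33192499 in GRCh38, minus strand) encodes a chain of type XI collagen, a minor fibrillar collagen of cartilage. It was read at 12.0, 10.1 and 12.6 CPM in control replicates 1, 2 and 3 and at 24.3, 23.9 and 21.1 CPM in vitamin C replicates 1, 2 and 3. Every vitamin C well lay above every control well. The mean was 11.5 ± 1.33 CPM in control and 23.1 ± 1.76 CPM in vitamin C wells (n = 3 per group, SD), for a log2 fold change of 1.01 (standard error, SE, 0.0943, adjusted p = 1.8e-05 by edgeR). The partner chain COL11A1 had no more than 24 counts in any library. Its log2 fold change was 0.19 with a 95% interval from -1.20 to 1.58, which took in the change of COL11A2. COL11A1 levels spread from 0.24 to 1.11 CPM between control wells and from 0.21 to 1.15 CPM between vitamin C wells.

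COL3A1 (ENSG00000168542, chr2:188974320-189012746, plus strand) encodes type III collagen of skin and vessel walls. It stood at 1.85, 1.68 and 1.98 CPM in the control wells and at 2.74, 2.92 and 3.68 CPM in the vitamin C wells, from 32 to 77 and 70 to 96 counts. The groups did not overlap, and the log2 fold change was 0.76 (SE 0.187, adjusted p = 0.019 by edgeR). The call was lost without control replicate 1 (0.063), without control replicate 2 (0.077) and without both libraries numbered 3 (0.058), all as adjusted p, with log2 fold changes of 0.68 to 0.77.

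COL5A3 (ENSG00000080573, chr19:9959561-10010471, minus strand) encodes a chain of type V collagen, which is buried in fibrils and limits their diameter. Its levels were 2.91, 3.28 and 2.97 CPM in the control wells and 1.53, 0.942 and 1.58 CPM in the vitamin C wells. No vitamin C well reached a control well. The mean was 3.05 ± 0.198 CPM in control and 1.35 ± 0.352 CPM in vitamin C wells (n = 3 per group, SD), for a log2 fold change of -1.21 (SE 0.219, 95% interval -1.68 to -0.74, adjusted p = 0.003 by edgeR). Of its exon bases, 4.0% overlap AC008742.1 on the opposite strand, and the strand setting of the counting is not known here. Its partner chains had log2 fold changes of -0.63 (interval -1.38 to 0.11) for COL5A1 and -0.34 (interval -0.80 to 0.13) for COL5A2, neither called.

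The other fibrillar collagens were not called. COL1A1, the main chain of the type I collagen of bone and skin, was read by 5 to 21 counts a library, with a log2 fold change of -0.11 (interval -0.95 to 0.73). COL2A1, the chain of the main cartilage collagen, had 0.22, COL24A1 had 0.14 and COL27A1 had 0.06, the last with an interval from -0.11 to 0.23.

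Among the FACIT collagens, 7 of 10 were tested and 3 rose, beside 6.09% higher over all genes tested. COL19A1 (ENSG00000082293, chr6:69866571-70209976, plus strand), a FACIT collagen found near basement membranes, had the most reads of all 36. Its levels were 111, 112 and 105 CPM in the control wells and 149.6, 163 and 144 CPM in the vitamin C wells. The lowest treated well lay above the highest control well. The log2 fold change was 0.48 (SE 0.0557, adjusted p = 1.1e-04 by edgeR), from 109 ± 4.08 to 152 ± 10.2 CPM (n = 3, SD).

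COL9A2 (ENSG00000049089, chr1:40300487-40317813, minus strand) encodes a chain of type IX collagen, which decorates the fibrils of cartilage. It was found at 3.53, 2.87 and 3.96 CPM in the control wells and at 4.93, 4.77 and 5.54 CPM in the vitamin C wells, without overlap. The log2 fold change was 0.57 (SE 0.151, adjusted p = 0.028 by edgeR). The call was lost without control replicate 1, control replicate 2, vitamin C replicate 1 or vitamin C replicate 2, with adjusted p of 0.072, 0.12, 0.052 and 0.058, and log2 fold changes of 0.45 to 0.61. The partner chain COL9A3, the most abundant of the 36 per length in control wells, went from 89.5 ± 7.67 to 83.2 ± 2.82 CPM (n = 3, SD), for a log2 fold change of -0.10 (interval -0.24 to 0.03) that was not called. The remaining partner, COL9A1, had at most 9 counts in a library.

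COL14A1 (ENSG00000187955, chromosome 8), which binds the surface of fibrils, stood at 4.63, 5.77 and 5.63 CPM in the control wells and at 6.61, 6.96 and 7.73 CPM in the vitamin C wells. The groups did not overlap. The log2 fold change was 0.42 (SE 0.126, adjusted p = 0.047 by edgeR), and this call was lost in each of the 6 fits that left out 1 library, with adjusted p from 0.056 to 0.20. COL16A1 had a log2 fold change of 0.22 (interval -0.01 to 0.45), COL12A1 had -0.08 and COL21A1 had -0.18, none called.

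All 3 chains of type VI were tested, and 1 rose, beside 6.09% higher over all genes tested. COL6A3 (ENSG00000163359, chr2:237324003-237414375, minus strand), the longest of these chains, was read at 1.32, 1.23 and 1.92 CPM in the control wells and at 2.62, 2.71 and 3.48 CPM in the vitamin C wells. The groups lay apart, although counts were only 31 to 55 and 67 to 89. The log2 fold change was 1.02 (SE 0.220, adjusted p = 0.0091 by edgeR). COL6A1 had a log2 fold change of -0.15 (interval -0.33 to 0.02) and COL6A2 had 0.38 (interval -0.20 to 0.96), neither called.

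The network-forming COL8A1 (ENSG00000144810, chr3:99638475-99799226, plus strand) encodes a short-chain collagen of the cornea and of vessel walls. Its levels were 19.5, 18.95 and 15.5 CPM in the control wells and 28.6, 28.1 and 29.4 CPM in the vitamin C wells. The treated wells lay close together and above every control well. The log2 fold change was 0.66 (SE 0.0834, adjusted p = 2.2e-04 by edgeR), from 18.0 ± 2.19 to 28.7 ± 0.623 CPM (n = 3, SD).

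No member of the anchoring fibril, transmembrane or multiplexin classes was called, beside 11.2% of all genes tested by edgeR and 11.3% by DESeq2. With 5 tested genes, this count cannot tell these classes from those shares. Of the 5, COL15A1 alone had an unadjusted p under 0.05 by edgeR. COL15A1 was read at 17.4, 15.4 and 16.8 CPM in the control wells and at 14.4, 14.0 and 14.6 CPM in the vitamin C wells. These groups did not overlap either, but the log2 fold change of -0.21 (interval -0.38 to -0.04) had an edgeR adjusted p of 0.11. COL18A1, the source of the fragment endostatin, went from 55.6 ± 1.44 to 55.9 ± 6.32 CPM (n = 3, SD), for a log2 fold change of 0.0047 (interval -0.15 to 0.16). Of its exon bases, 16.4% overlap SLC19A1 on the opposite strand. COL25A1 had -0.03 (interval -0.17 to 0.12), COL13A1 had -0.36 (interval -0.77 to 0.04) and COL7A1 had -0.10 (interval -0.33 to 0.14), all on the log2 scale.

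Without overlap between the groups were 7 collagens higher and 2 lower, of the 26 tested. Over all genes tested, 30.6% were without overlap, 15.6% higher and 14.9% lower. The log2 fold changes of the 18 collagens that were not called ran from -0.63 to 0.38. Of these 18, 8 had a median of under 100 counts a library. The 95% intervals of the 18 were between 0.268 and 2.78 wide on the log2 scale. The interval of COL11A1 took in a 2-fold rise and a 2-fold fall, and that of COL5A1 a 2-fold fall only.

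**Figure D2:**
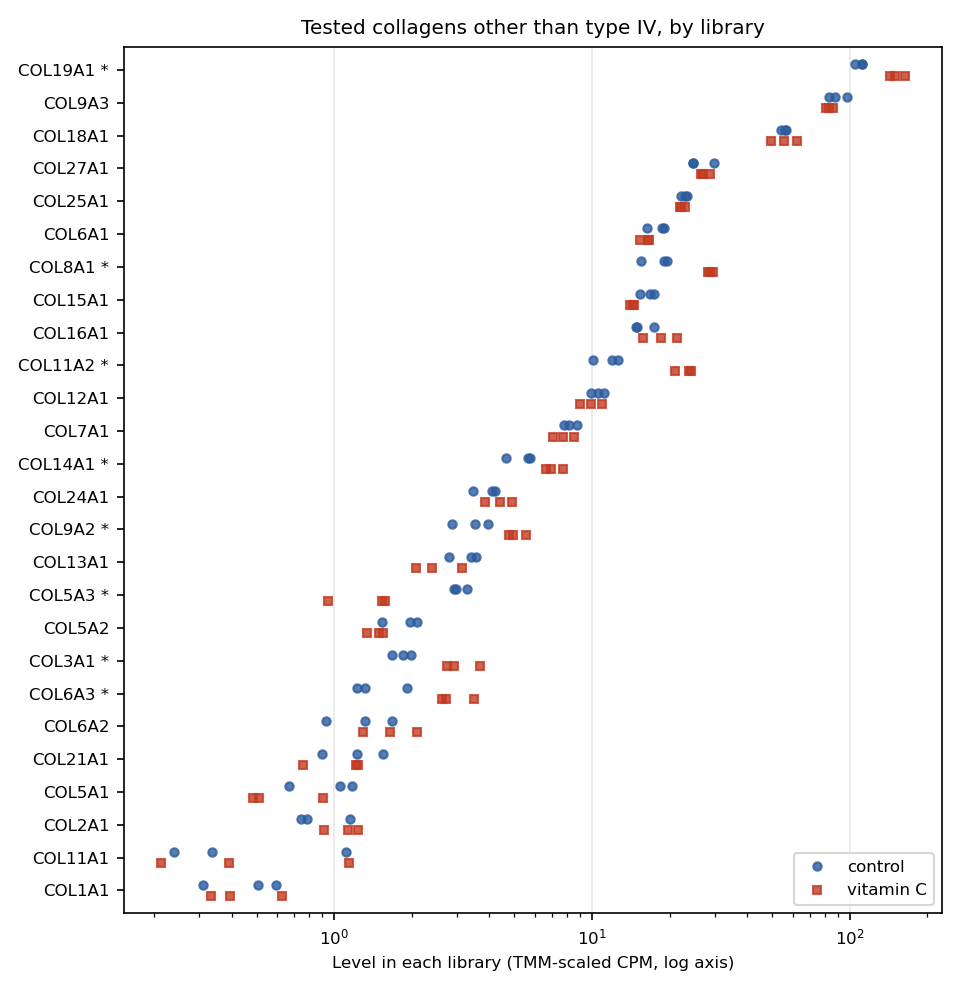
Level of each tested collagen in each of the 6 libraries, in TMM-scaled CPM on a log axis, ordered by the mean level, with circles for control wells and squares for vitamin C wells. An asterisk marks the 8 called collagens, from COL19A1 at 105 to 163 CPM down to COL6A3 at 1.23 to 3.48 CPM, and in each of the 8 the circles and squares do not overlap.

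**Figure D3:**
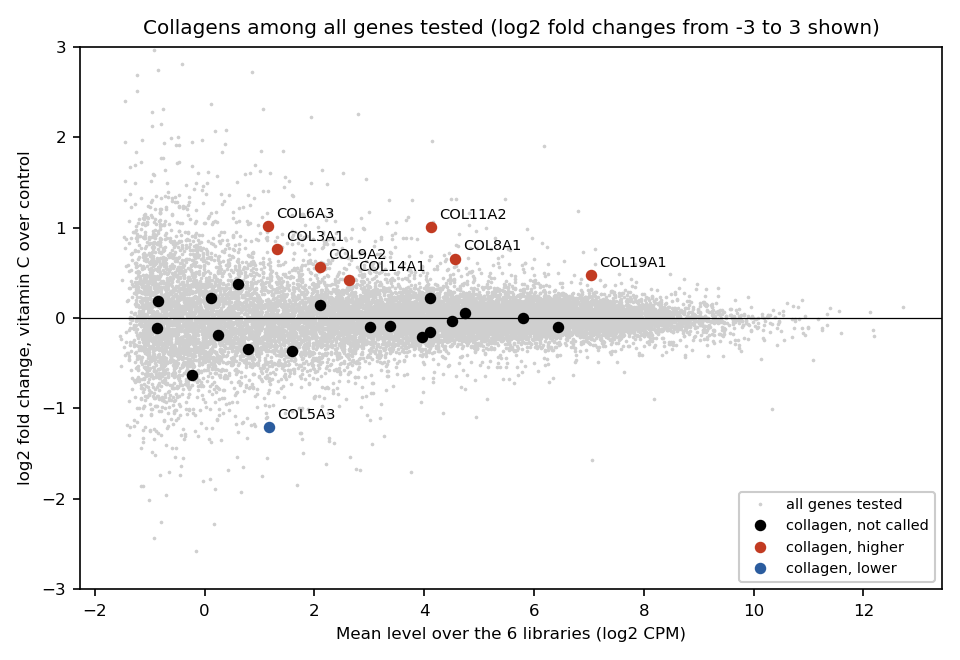
Log2 fold change of the 16353 genes tested against their mean level over the 6 libraries, in log2 CPM. The axis leaves out the largest changes, such as that of MLANA at 3.38. The collagens are drawn larger and the called ones named. COL11A2 lies at 1.01, COL8A1 at 0.66 and COL19A1, the most abundant of the named collagens, at 0.48, and COL5A3 lies at -1.21.

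Levels were compared between the 36 collagens after division by exon length. Among these 36, COL9A3 had the highest level in control wells, 18.5 CPM per kb, followed by COL19A1 with 12.8 and COL18A1 with 6.53. In the control wells COL9A3 ran from 17.1 to 20.2 CPM per kb and COL19A1 from 12.3 to 13.1, so the first and second places were separate. In the vitamin C wells they ran from 16.7 to 17.8 and from 16.9 to 19.2 CPM per kb, so the first and second places overlapped. COL11A2 moved from rank 9, with 1.71 CPM per kb, to rank 4, with 3.42, and COL8A1 from rank 7 to rank 5. The type I chains were low in control wells, COL1A2 at rank 26 with 0.0495 CPM per kb and COL1A1 at rank 27 with 0.0478.

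Summed over the 36 collagens, reads came to 439, 419 and 441 CPM in the control wells and to 481, 501 and 503 CPM in the vitamin C wells. The groups did not overlap. COL19A1 took 25.2% of this sum in control wells and 30.7% in vitamin C wells. Without COL19A1 the sums were 324 ± 14.97 and 343 ± 14.7 CPM (n = 3, SD), and the groups overlapped. The type IV chains had more reads than the 36 together, 1031 ± 45.2 CPM in control and 815 ± 14.5 CPM in vitamin C wells, and of their 5 tested genes 4 fell and none rose, beside 5.09% of all genes called lower, with a median log2 fold change of -0.37.

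Ratios of chains within a library do not depend on how libraries are scaled. They were compared for 7 pairs of chains, 5 of type V, VI or XI and 2 chosen after their values were seen. The 5 came from 9 pairs listed first, of which the others had a chain that did not pass the filter. The test was a two-sided exact permutation test that cannot go below p = 0.1 with 3 wells against 3. COL6A3 had 0.0822 counts per count of COL6A1 in control wells and 0.181 in vitamin C wells, a difference of 1.14 on the log2 scale. The groups lay apart, with the smallest possible exact p of 0.1. Adjusted over the 7 pairs this became 0.23. That adjustment is not a fair one, because it includes the 2 pairs that were chosen after their values were seen. The same exact p held for COL9A2 over COL9A3, with a log2 difference of 0.67, and for COL5A2 over COL3A1, with -1.09, the pairs that were chosen after their values were seen. For COL5A2 over COL3A1 the ratio was 1.01 in control and 0.475 in vitamin C wells. COL5A2 and COL3A1 are adjacent genes, and their own log2 fold changes were -0.34, not called, and 0.76.

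The other pairs overlapped between the groups. COL6A2 over COL6A1 differed by 0.52 on the log2 scale (exact p = 0.2), COL5A3 over COL5A1 by -0.59 (exact p = 0.3) and COL5A2 over COL5A1 by 0.27 (exact p = 0.4). COL11A2 had 24.6 counts per count of COL11A1 in control and 48.2 in vitamin C wells, with no correction for length, yet this ratio spread so widely between wells that the exact p was 0.4.

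**Figure D4:**
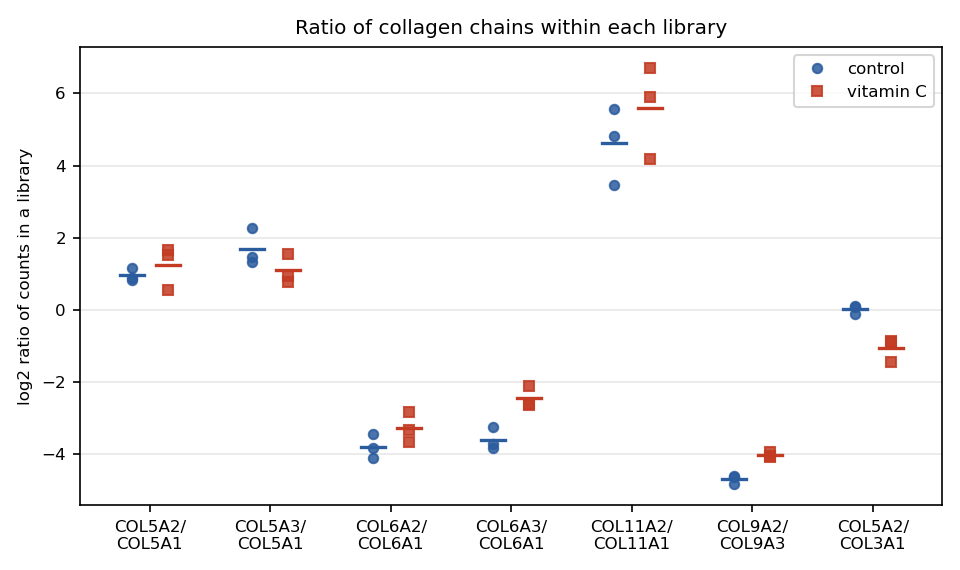
Log2 ratio of the counts of 2 chains within each library for the 7 pairs, with control wells as circles, vitamin C wells as squares and a bar for each mean. The groups lie apart for COL6A3/COL6A1. They also lie apart for COL9A2/COL9A3 and COL5A2/COL3A1, the 2 pairs chosen after their values were seen. They overlap for the other pairs.

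The 10 collagens that did not pass the filter were COL1A2, COL9A1, COL20A1, COL22A1, COL8A2, COL10A1, COL17A1, COL23A1, COL26A1 and COL28A1. Apart from COL1A2 and COL8A2 they had at most 9 counts in any library. COL1A2, the partner of COL1A1 in type I collagen, had 5, 8 and 20 counts in the control wells and 9, 3 and 23 in the vitamin C wells. Its counts were highest in the library numbered 3 of either group, although these were the smallest library of each group. COL11A1 was also highest in both, its counts being 10, 9 and 18 without and 10, 7 and 24 with vitamin C. In the fit without both libraries numbered 3, chosen after seeing the data, 5 of 25 tested collagens were higher and 1 lower. Over all 16789 genes tested in that fit, 862 were higher and 640 lower. COL6A3 kept a log2 fold change of 1.06 (adjusted p = 0.009) there, whereas COL3A1 and COL14A1 were not called.

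COL8A2, the partner of COL8A1 in type VIII collagen, had 8, 6 and 1 counts in the control wells and 16, 8 and 22 in the vitamin C wells. As CPM the groups did not overlap. It was not tested in the main comparison. With no filter on low counts its log2 fold change was 1.79 (edgeR adjusted p = 0.016). Without vitamin C replicate 2, its lowest vitamin C well, it passed the filter through the remaining vitamin C wells, where it is high. Its log2 fold change was 2.22 in that fit, which is therefore no support for a rise.

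**Figure D5:**
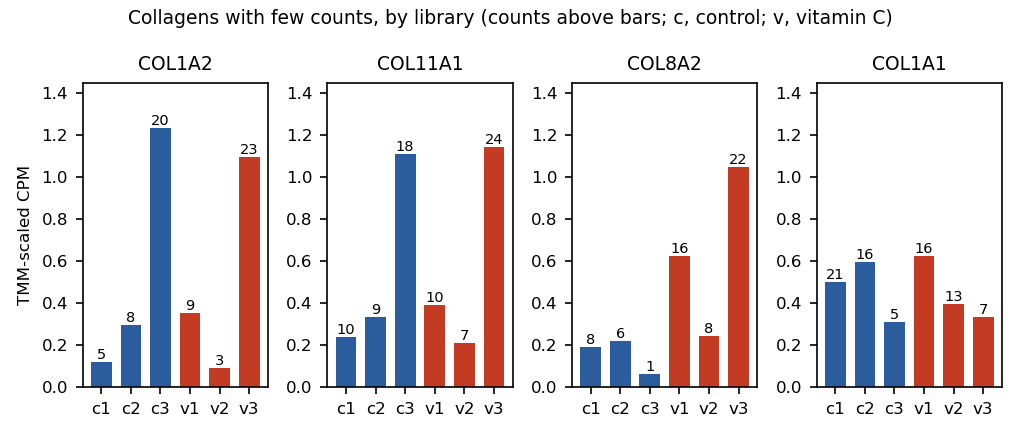
TMM-scaled CPM of 4 collagens with few counts in control wells (c, blue) and vitamin C wells (v, red), with the counts above the bars. COL1A2 and COL11A1 are highest in the libraries numbered 3 of both groups, and COL8A2 has 1 count in control replicate 3 and 22 in vitamin C replicate 3.

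The genes that make, place and degrade collagen were counted by list. Of the 17 tested genes for hydroxylation and folding in the ER, 1 rose and 3 fell, with a median log2 fold change of -0.06, beside 6.09% higher and 5.09% lower over all genes tested. P4HA1, a catalytic subunit of prolyl hydroxylase, fell by 0.32 on the log2 scale (edgeR adjusted p = 3.4e-04), and the lysyl hydroxylase PLOD2 rose by 0.18 (adjusted p = 0.018). P3H4, a partner of the prolyl 3-hydroxylases, fell by 0.19 (adjusted p = 0.048). CRTAP, the remaining gene that fell, had -0.14, with an edgeR adjusted p that rounds to 0.05. Its call was lost with the replicate number as a block (0.067). It was kept without vitamin C replicate 3 (0.024) and lost without any other 1 library (0.096 to 0.14). The call of P3H4 was lost in all 6 fits without 1 library and with DESeq2 (adjusted p = 0.052), voom (0.055) and 3 other settings, and that of PLOD2 in 4 of the 6 fits without 1 library (0.065 to 0.075). Of the 10 tested genes of collagen export, none was called by edgeR or DESeq2, and 1 had an unadjusted p under 0.05.

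Of the 7 tested genes that cleave procollagen or cross-link fibrils, 3 rose and none fell, beside 6.09% higher and 5.09% lower over all genes. They were the procollagen peptidase ADAMTS3 with a log2 fold change of 0.50 (edgeR adjusted p = 3.8e-04) and the lysyl oxidases LOXL2 with 0.54 (0.0019) and LOX with 1.33 (0.0063). Of 5 tested fibril-binding proteins, the proteoglycan LUM rose, whereas FN1, with -0.21 (adjusted p = 0.0082), and THBS2, with -0.17 (0.032), fell. THBS2 lost its call without any 1 of the control libraries (adjusted p = 0.12, 0.10 and 0.095), and FN1 without control replicate 3 (0.053).

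Collagen receptors were called in 6 of 10 tested genes, 4 higher and 2 lower, beside 11.2% of all genes tested. DDR2, a receptor kinase for fibrillar collagen, had a log2 fold change of 0.28 (edgeR adjusted p = 5.1e-04), ITGA1, an integrin subunit that binds collagen, 0.20 (0.0072) and ANTXR1 -0.33 (6.8e-04), with ITGA1 not called without control replicate 3 (0.055). Of 9 tested proteases that degrade collagen, 5 rose and 2 fell, beside 6.09% and 5.09% of all genes. CTSK had 1.00 (5.1e-06), FAP 0.78 (3.9e-06) and the collagenase MMP8 -0.36 (2.2e-04). FAP is among the genes that the study picked from these same samples, so it is not independent evidence of the direction of that list.

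Markers of other cells that make collagen were counted beside these results. Over all genes tested, 6.09% were called higher and 5.09% lower. Of 10 fibroblast markers, 4 were tested and 2 rose, LUM and PDGFRB, and the summed level ran from 56.8 to 64.0 CPM in control and from 94.5 to 110.5 CPM in vitamin C wells. LUM, which is also among the fibril-binding proteins, gave 51.1 ± 3.58 and 90.2 ± 7.28 CPM (n = 3, SD) of these sums. TWIST2 was at 0 counts in all 6 libraries, and THY1 and DPT had at most 5. Of 8 chondrocyte markers, 3 were tested and 1 rose, SOX9, and the summed level ran from 5.88 to 7.07 and from 8.60 to 10.6 CPM. ACAN and COMP had at most 3 counts in a library, whereas MATN3 had 7 to 21 and SNORC 13 to 31.

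Further marker lists stand beside the same shares, 6.09% higher and 5.09% lower over all genes tested. Of 7 endothelial markers, 3 were tested and 2 rose, PECAM1 and KDR, with sums of 7.82 to 9.16 and 16.1 to 17.3 CPM and CLDN5 at 0 counts. Of 7 epithelial markers, 3 were tested and 1 fell, KRT18, with sums of 63.1 to 67.4 and 56.1 to 58.6 CPM. Of 8 blood cell markers, 2 were tested and 1 rose, LAPTM5, with sums of 4.49 to 5.85 and 8.16 to 9.88 CPM, and the other 6 had at most 2 counts in a library. The part of these genes in the changes of the collagens was not tested.

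Within 100 kb of the 8 called collagens, 24 other genes were tested, 3 of them called in the direction of their collagen and 2 in the other, beside 11.2% of all genes called in either direction. COL11A2 lies among the genes of the MHC class II region, where HLA-DPA1 had a log2 fold change of 0.88 and PFDN6 -0.51, both called, while 9 further neighbours were not. MLPH next to COL6A3 had 1.54 and MTBP near COL14A1 had 0.22, both higher, and RLF near COL9A2 had -0.28, lower. No tested neighbour of COL19A1, COL8A1, COL3A1 or COL5A3 was called by edgeR. These neighbours were listed after the collagens' values were seen.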

How the data were processed

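RNA-seq was done by the study on ribosome-depleted RNA from 6 wells of A2058 cells, 3 per group, grouped by the sample labels. The deposited values are raw read counts per gene, which the authors made with STAR and HTSeq. The paper names GENCODE v19, whereas the notes of the submitters list the build hg38 together with CASAVA 1.4 and Trim Galore. The strand setting of the counting is not known here, so reads where a gene overlaps another on the opposite strand may belong to either. The single-sample tables equal the series table in 6 of 6 cases. Wells of one group differed by more than sampling noise (chi-square over its degrees of freedom, 2.75 to 11.0).

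Symbols, coordinates and exon lengths came from GENCODE 29, which held 57055 of the 60675 identifiers. Counts were fitted in R 4.3.3 with edgeR 4.0.16 (filterByExpr, TMM, quasi-likelihood test, no covariate), and the steps were tested on simulated data. Alternatives were other scalings and filters, DESeq2 1.42.0, voom in limma 3.58.1, a replicate block and fits without 1 library. Chain ratios used a pseudocount of 0.5. Sequences are from RefSeq.

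The members and lists were chosen with earlier results of these data known. Called collagens are given in every library, other tested ones by partner chain or range, and untested ones by counts. Of each list, up to 3 called genes with the smallest p are given, and CRTAP was added. Other measurements of the study were not analysed here.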

Additional observations from a re-analysis of the deposited data

How the results depend on the processing

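COL11A2, COL19A1, COL8A1, COL6A3 and COL5A3 kept their calls and directions in every alternative run. COL3A1 and COL9A2 lost theirs in some of the fits that left out 1 library and COL14A1 in all 6, and also with upper quartile scaling (adjusted p = 0.056) and DESeq2 (0.076). In fits without 1 library, 4 to 6 collagens were called higher and 1 lower, with 4 without control replicate 1 or control replicate 2, and 964 to 2095 genes were called in all: 1092 without control replicate 1, 977 without control replicate 2, 964 without control replicate 3, 1136 without vitamin C replicate 2 and 2095 without vitamin C replicate 3. The cause was not tested. Other settings gave 6 to 8 collagens higher and 1 lower, with 1699 (DESeq2, of 15084 tested) to 1989 genes called in all. The 8 came only with no filter on low counts, where COL8A2 was added. There 1147 genes were higher and 842 lower of 44814 tested. The median log2 fold change of the collagens lay between -0.03 and 0.08.

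The deviations of same-numbered wells correlated with r = 0.12, -0.04 and 0.11, and those of differently numbered wells with r from -0.19 to 0.13. With 3 wells per group these values cannot tell whether the replicate numbers paired the wells. With the replicate number as a block, 1913 genes were called, with 7 collagens higher and 1 lower, the same 8 as without the block.

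Among collagens that were not called, log2 fold changes changed sign in some fits. Without 1 library, COL1A1 lay between -0.40 and 0.056 (above 0 without control replicate 2, vitamin C replicate 2 or vitamin C replicate 3), COL11A1 between -0.67 and 0.94 (below 0 without control replicate 1, control replicate 2 or vitamin C replicate 3), COL21A1 between -0.36 and 0.038, and COL18A1 between -0.071 and 0.082. COL18A1 also had -0.0053 with upper quartile scaling, -0.0048 with voom, -0.0036 with the replicate block and -0.065 without both libraries numbered 3. A further 18 genes were followed (3 type IV chains and the named genes that make, place or degrade collagen, without CRTAP). Of these, P3H4, PLOD2, FN1, THBS2 and ITGA1 lost their calls in some fits. P3H4 lost its call in all 6 that left out 1 library. It also lost it with RLE scaling (adjusted p = 0.05), library size only (0.067), no filter (0.087), DESeq2 (0.052) and voom (0.055). Low counts limit COL1A1, COL11A1, COL5A1 and the 10 untested collagens most.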
